A study of Mus musculus with 20 samples.

Results

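The genes for the proteins of the cytosolic ribosome were examined in neural stem cells and progenitors of the neonatal mouse subventricular zone (SVZ), the germinal layer beside the lateral ventricles. A gene was included when its symbol had the form of a cytosolic ribosomal protein name (Rpl or Rps with a number, Rplp0 to Rplp2, or Rpsa), and symbols ending in -ps, which mark pseudogenes, were left out. This gave 82 of the 45705 genes in the table, 50 with Rpl symbols (large subunit) and 32 with Rps symbols (small subunit). The set held 76 core genes and 6 paralogues (Rps27l, Rpl36al, Rps4l, Rpl39l, Rpl10l and Rpl3l). The names alone chose the genes, and no measured value was used.

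Cells came from the periventricular zone of postnatal day 5 Swiss Webster pups, with all pups of a litter pooled, and no genotype or treatment distinguished the groups. They were sorted by fluorescence for 4 surface antigens, CD133, LeX (CD15), CD140a and NG2, into neural stem cells (NSCs, positive for CD133 and LeX and negative for CD140a and NG2) and 4 progenitor populations named BNAP/GRP1, GRP2/MP3, GRP3 and PFMP. BNAP is a neuron and astrocyte restricted progenitor, GRP a glial-restricted one, and MP and PFMP are multipotential ones. Each population had 4 libraries, numbered by batch from 1 to 4, and NSC 3, for example, denotes the batch 3 library of the NSCs. PolyA RNA was amplified before sequencing, and the values are RPKM, in which reads are divided by the length of the gene and by the size of the library.

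A ribosome is built from a small and a large subunit, and with few exceptions each ribosomal protein is present in the same number of copies, so the core genes are expressed together in every cell. Their messages begin with a run of pyrimidines, the 5′ terminal oligopyrimidine (TOP) motif, through which mTORC1 controls their translation. In the adult SVZ protein synthesis is known to rise when quiescent stem cells are activated and begin to divide.

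Promoter sequence was matched for 61 of the 82 genes in the RefSeq table of GRCm38.p6. Shown here are 80 bases, from 60 before the RefSeq start to the 20th base of the transcript, for the genes on which the results turn. Rps12 had the largest rise estimated in any progenitor. Rps28 had the highest mean level. Rpl35 was the only one with a call upwards in batch 4. Rps27l was the gene most often lower than in NSCs. Rpl26 and Rpl23 are an example of how the ratio of large subunit genes shifted between libraries. Capitals mark unbroken runs of at least 8 pyrimidines.
Rps12, chr10:23787190-23787269, minus strand: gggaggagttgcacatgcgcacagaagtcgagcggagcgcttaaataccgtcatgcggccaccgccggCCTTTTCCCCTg
Rps28, chr17:33824543-33824622, minus strand: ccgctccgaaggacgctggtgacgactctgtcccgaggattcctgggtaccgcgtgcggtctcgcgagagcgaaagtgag
Rpl35, chr2:39005112-39005191, minus strand: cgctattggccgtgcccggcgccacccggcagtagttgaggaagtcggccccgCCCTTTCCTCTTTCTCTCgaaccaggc
Rps27l, chr9:66946026-66946105, plus strand: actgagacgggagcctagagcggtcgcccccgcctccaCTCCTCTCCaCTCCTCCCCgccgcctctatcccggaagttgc
Rpl26, chr11:68901506-68901585, plus strand: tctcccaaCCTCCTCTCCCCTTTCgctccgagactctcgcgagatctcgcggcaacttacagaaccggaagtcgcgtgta
Rpl23, chr11:97782420-97782499, minus strand: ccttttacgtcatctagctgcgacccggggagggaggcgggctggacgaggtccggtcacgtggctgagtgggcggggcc

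The run of pyrimidines spanned the RefSeq start in Rpl35, lay after it in Rps12 and before it in Rps27l and Rpl26, and was not in this window of Rps28 or Rpl23. Over the 61 genes with a promoter, 49.2% had a run of at least 8 pyrimidines within 20 bases of a RefSeq start, against 18.8% of the 27025 genes in the table. The letters CCGGAAG, on either strand of the 300-base promoter, were found in 41.0% of them against 9.93% of all genes. CTTTCC on either strand was found in 54.1% against 29.3%, and GGGCGG in 60.7% against 38.2%. TATAAA was found in 9.84% against 15.7%. These are matches of letters, and binding was not measured.

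The depth and the composition of the libraries set limits to every comparison of these genes. Read totals are not in the table, and the low values of short genes gave about 122000 reads in BNAP/GRP1 4 and up to 4350000 in BNAP/GRP1 3. The ribosomal protein genes held about 1641 of these reads in BNAP/GRP1 4, a median of 16.9 per gene, and at least about 16071 in every other library. The 5 libraries of batch 3 stood apart. In them the 6 lung epithelium markers summed to between 920 and 1050 RPKM, against at most 66.8 in any other library, and the 6 erythrocyte markers to at least 228440. The NSC and astroglial markers summed there to at most 349 RPKM and the markers of oligodendrocyte precursors (OPCs) to at most 19.8. Within batch 3 some markers still followed the labels. The 10 ependymal markers summed to 1458 RPKM in NSC 3, where the median of the batch was 6.93. The OPC sums were highest in PFMP 3 (19.8) and GRP3 3 (17.0), against 3.55 to 5.33 in the other populations. The lung and erythrocyte markers, high in all 5 libraries, go against the labels. It is thus in doubt whether these 5 libraries hold the sorted populations they are named for. The comparisons with NSCs and between batches are therefore also given without batch 3.

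Ribosomal protein genes were among the most abundant in the table. Highest was Rps28, a small subunit protein, with a mean of 12417 RPKM over the 20 libraries. It was followed by Rps12, Rplp1, Rps29 and Rps27a. Rplp1 is one of the acidic stalk proteins that recruit elongation factors, and Rps27a is made as a fusion with ubiquitin. Among the core genes the lowest was Rpsa, the laminin receptor homologue of the small subunit, at 380 RPKM. The 4 lowest of all were paralogues, Rpl3l at 0.493, Rpl10l at 2.76, Rpl39l at 7.76 and Rps4l at 13.4 RPKM. Genes for shorter transcripts tended to have higher values: across the 76 core genes Spearman's rho between level and transcript length lay between -0.61 and -0.02 in the 20 libraries, a description over genes that share a library.

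The 82 genes together made up between 0.429% and 29.8% of all RPKM in a library. In NSCs the share was 8.70%, 10.7%, 8.68% and 1.81% in batches 1 to 4. In BNAP/GRP1 it was 16.8%, 18.8%, 8.71% and 0.429%. In GRP2/MP3 it was 29.8%, 14.1%, 8.37% and 3.64%. The GRP3 libraries gave 18.1%, 14.0%, 8.53% and 1.80%, and the PFMP libraries 16.3%, 21.8%, 8.68% and 3.36%. All 8 progenitor libraries of batches 1 and 2 lay above the 2 NSC libraries of those batches, while in batch 3 the 5 populations lay between 8.37% and 8.71%. In batch 4 the NSC library lay between the progenitors. The mean was 7.47% ± 3.89 (SD, n = 4) in NSCs and 10.6% ± 7.07 (GRP3) to 14.0% ± 11.4 (GRP2/MP3) over the progenitors (SD, n = 4 each), so the populations overlapped. In sorted bulk samples a change in the mix of cells and a change per cell cannot be told apart.

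**Figure D1:**
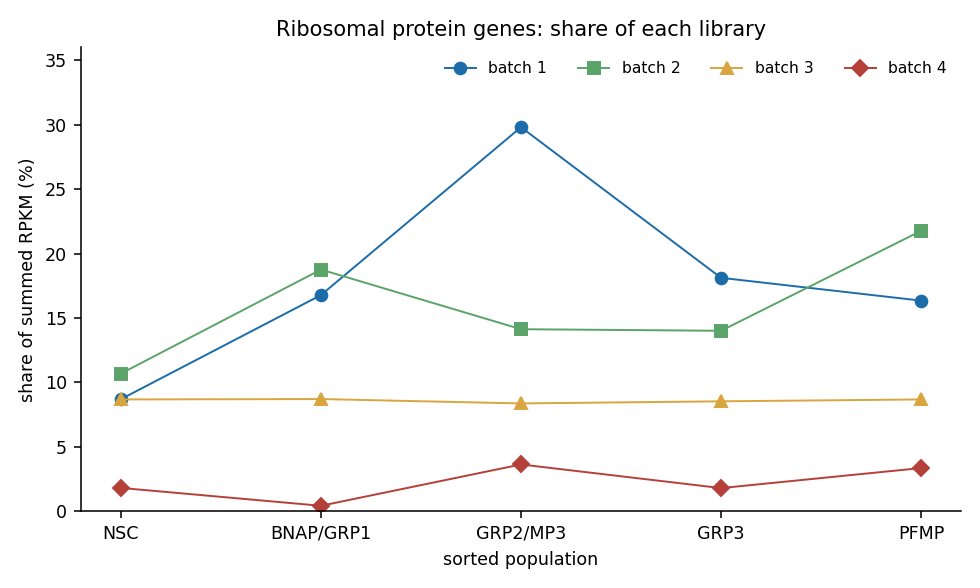
Share of the summed RPKM of each library that came from the 82 ribosomal protein genes (y axis, %), by population (x axis), with a point for each library and a line joining the libraries of a batch. Batches 1 and 2 rise from NSC to the progenitors, batch 3 stays between 8.37% and 8.71%, and batch 4 stays at or below 3.64%.

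The first question was whether the progenitors differ from NSCs in the expression of the translation machinery. No ribosomal protein gene passed the threshold in any progenitor. The test took every gene that reached 1 RPKM in 4 or more libraries, which kept 81 of the 82 genes and left out Rpl3l. Values were compared as log2(RPKM + 1) with limma and Benjamini-Hochberg adjustment over the 27614 genes tested. BNAP/GRP1 had 0 of 81 called, where 0.76% of all genes tested were called. GRP2/MP3 had 0 of 81 called (1.12% of all genes), GRP3 0 of 81 (1.05%) and PFMP 0 of 81 (1.14%). At an unadjusted p under 0.05 the count was also 0 of 81 in each of the 4 comparisons, against 1629, 1600, 1552 and 1623 of all genes. The standard error of a log2 difference had a median of 1.26 over the 81 genes, so that a difference of several-fold lay within the error.

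The estimates leaned towards higher expression in progenitors. The log2 difference from NSC was above 0 for 59 of 81 genes of BNAP/GRP1, 77 of GRP2/MP3, 62 of GRP3 and 78 of PFMP. Its median was 0.30, 0.77, 0.27 and 0.65 in that order, against 0.38, -0.08, 0.05 and -0.20 over all genes tested. These comparisons share the NSC libraries. In BNAP/GRP1 the median over the ribosomal protein genes lay below that over all genes. Scaling each library to the same RPKM total turned the BNAP/GRP1 median to -0.02, with 39 of 81 genes above 0. Without NSC 4 the medians fell to -0.43, 0.018, -0.46 and -0.0078 in the same order. This fit keeps the progenitor libraries of batch 4, a batch that was low for these genes. Without the batch 4 library of the progenitor instead, the medians rose to 1.41, 1.28, 0.93 and 1.19. They were -0.39 without BNAP/GRP1 2, 0.13 without GRP2/MP3 1, -0.12 without GRP3 1 and 0.19 without PFMP 2, each for its own population. Without batch 3 they were 0.48, 1.03, 0.38 and 0.89, with 0 genes called in each. For these comparisons with libraries left out, the medians and shares called over all genes are not given here, so they have no background beside them.

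Within batches the direction differed. In PFMP the median difference from the NSC library of the same batch was 0.85, 0.94, 0.02 and 1.04 in batches 1 to 4, with 71, 75, 47 and 77 of 81 genes higher, against 47.8%, 42.3%, 32.3% and 27.1% of all genes tested. GRP2/MP3 gave 2.75, -0.74, -0.05 and 1.33, with 78, 25, 33 and 78 genes higher, against 43.5%, 41.0%, 30.7% and 34.8% of all genes. Genes with equal values in the compared libraries, such as 0 in each, counted as not higher, which lowers the shares over all genes. In GRP3 the medians were 1.44, -0.77, -0.02 and 0.38. In BNAP/GRP1 they were 1.47, 1.08, -0.02 and -1.17. The median over all genes was 0 in batches 1 to 3 for every progenitor except GRP3 in batch 1, at 0.06. In batch 4 it was -0.88 in PFMP, -0.29 in GRP2/MP3 and 1.53 in BNAP/GRP1, each on the other side of 0 from the ribosomal protein genes, and 0.11 in GRP3. PFMP was the only progenitor in which the median over the 81 genes was above 0 in all 4 batches, and in batch 3, whose labels are in doubt, it was within 0.02 of 0.

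**Figure D2:**
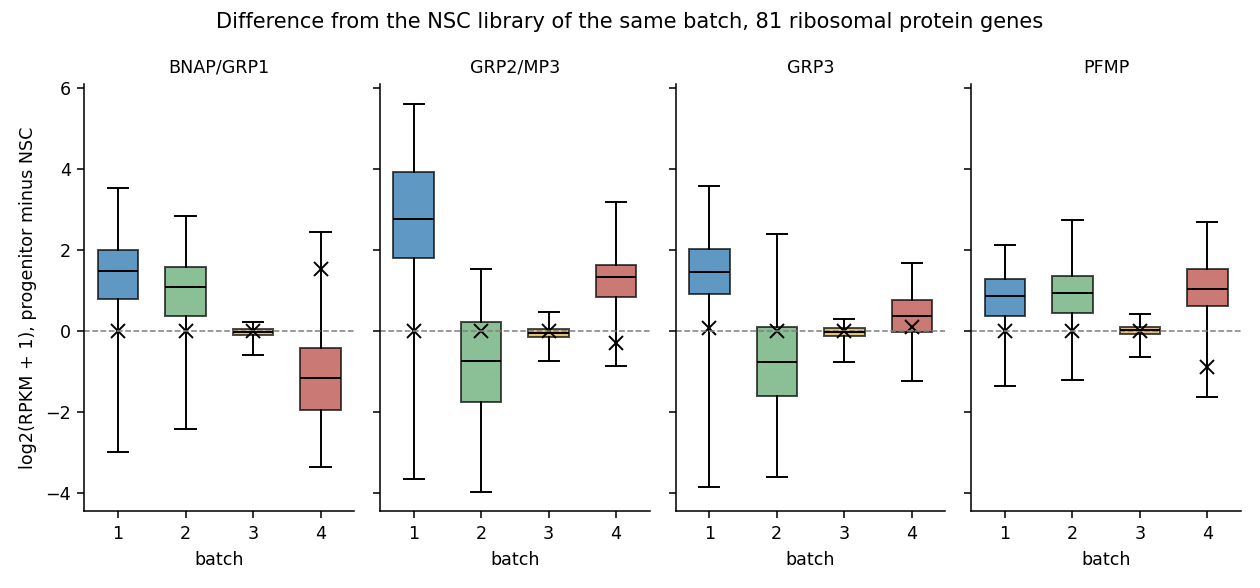
Log2 difference in RPKM + 1 between each progenitor library and the NSC library of its batch (y axis) for the 81 ribosomal protein genes tested, by batch (x axis) in 4 panels. Boxes span the quartiles with the median as a line, whiskers the full range, and crosses mark the median over all 27614 genes tested; boxes for batch 3 lie close to 0, and the GRP2/MP3 boxes for batches 1 and 2 lie on opposite sides of 0.

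In PFMP 37 of the 81 genes exceeded the NSC library in every one of the 4 batches, as did 5.75% of all genes tested. The count was 11 in GRP2/MP3 (background 4.76%), 5 in GRP3 (8.31%) and 3 in BNAP/GRP1 (9.35%). Over batches 1, 2 and 4 alone, a choice made after seeing the data, the counts were 67 in PFMP (12.7% of all genes), 22 in GRP2/MP3 (8.55%), 15 in GRP3 (21.5%) and 8 in BNAP/GRP1 (24.6%). Libraries of a batch moved as a whole, so these genes are not independent of each other. Ties with NSC counted as neither higher nor lower, which lowers the shares over all genes. The 3 genes in BNAP/GRP1 were Rpsa, Rpl12, a large subunit protein near the stalk base, and Rps19, a small subunit protein mutated in Diamond-Blackfan anaemia. In GRP2/MP3 they included Rps12, Rpsa, Rps2, Rps3, Rpl3 and Rpl10. Below NSC in every batch were 1 BNAP/GRP1 gene (7.68% of all genes), 0 GRP2/MP3 genes (12%), 1 GRP3 gene (9.07%) and 2 PFMP genes (12.3%).

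The largest rises were uneven over the batches. Rps12, a small subunit protein, gave 1450, 3884, 4720 and 344 RPKM in NSCs and 41208, 4680, 4964 and 1123 in GRP2/MP3. It was higher in GRP2/MP3 in each batch, and the 2 ranges overlapped. Its log2 difference was 1.72 (SE 1.54, limma adjusted p = 1). Rpl13, a large subunit protein, gave 248, 1056, 1474 and 228 RPKM in NSCs and 760, 7074, 1632 and 886 in PFMP, a log2 difference of 1.61 (SE 1.06, limma adjusted p = 1). It was also higher in each batch. In BNAP/GRP1 the largest rise was that of Rps15a, at 1.35 (SE 1.18, limma adjusted p = 0.866), and in GRP3 that of Rpl13, at 0.94 (SE 1.06, limma adjusted p = 1).

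Rpsa, which besides its place in the ribosome was named for laminin binding, gave 87.1, 244, 651 and 35.9 RPKM in NSCs. It gave 703, 283, 717 and 227 in GRP2/MP3, a log2 difference of 1.49 (SE 1.00, limma adjusted p = 1). Rps28 varied widely between libraries. In NSCs it gave 2168, 8898, 4291 and 153 RPKM, and in BNAP/GRP1 11042, 62910, 3977 and 162. In PFMP it gave 7269, 36496, 3763 and 519. It was higher than in NSC in 3 of 4 batches of both progenitors, and lower in batch 3. Rpl10, a large subunit protein near the peptidyl transferase centre, gave 972, 1618, 2455 and 134 RPKM in NSCs and 9104, 3409, 2643 and 392 in GRP2/MP3.

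Falls were fewer, and Rps27l had the largest in BNAP/GRP1 and GRP3. Rps27l is a paralogue of Rps27 and a p53 target. In NSCs it gave 516, 1314, 456 and 441 RPKM. In BNAP/GRP1 it gave 488, 792, 337 and 42.3, in GRP3 336, 180, 291 and 311, and in PFMP 200, 1096, 337 and 295. Every GRP3 library lay below every NSC library, and BNAP/GRP1 and PFMP were lower in each batch with overlapping ranges. How many of all genes separate GRP3 from NSC in this way was not counted. The batch 3 libraries, whose labels are in doubt, are among those compared. In GRP2/MP3 the values were 842, 216, 321 and 353, above NSC in batch 1 and below it in the other 3. The log2 difference was -1.16 (SE 0.82, limma adjusted p = 1) in GRP3 and -1.15 (SE 0.82, limma adjusted p = 0.866) in BNAP/GRP1. In GRP2/MP3 it was -0.68 and in PFMP -0.66. Rps27l in GRP3 was the only ribosomal protein gene called against NSC under any alternative tried, at an adjusted p of 0.0453 in limma with library weights, where 4885 of 27614 genes were called.

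The other paralogues were low or followed the core genes. Rpl36al, whose protein is nearly the same as that of Rpl36a, lay between 59.8 and 5818 RPKM. It was lowest in the 5 libraries of batch 4. Rps4l lay between 0.851 and 44.8 RPKM. The X-linked Rps4x, its relative, lay between 51.3 and 3830. Rpl39l and Rpl10l are retrogenes known from the testis. Rpl39l gave 39.5, 4.72, 2.83 and 2.07 RPKM in NSCs and 20.1, 1.48, 1.51 and 0 in PFMP, lower in each batch, with a log2 difference of -1.09 (SE 0.99, limma adjusted p = 1). Rpl10l was highest in NSC 1, at 15.1 RPKM, and was listed at 0 in NSC 3, BNAP/GRP1 3 and PFMP 4. Rpl3l, known from muscle, stayed below 0.67 RPKM in 19 libraries and gave 6.08 in BNAP/GRP1 4, the library with the fewest reads.

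**Figure D3:**
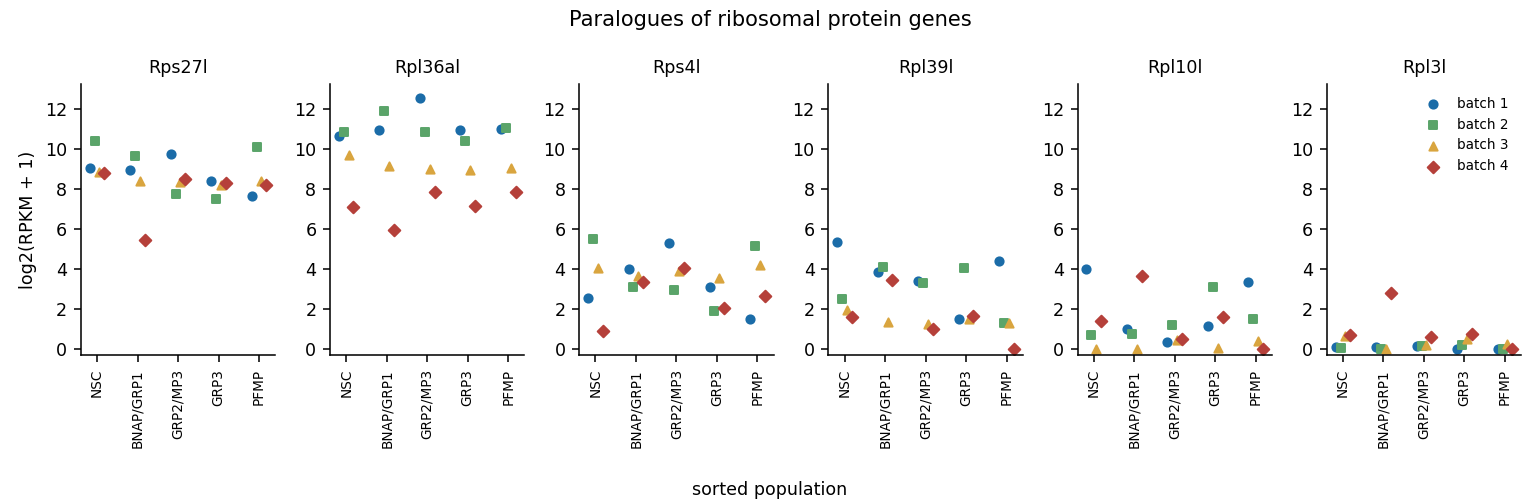
Values of the 6 paralogues as log2(RPKM + 1) (y axis) in each library by population (x axis), with colours and shapes for batches 1 to 4. Rps27l is lower in the 4 GRP3 libraries than in the 4 NSC libraries, Rpl36al falls in batch 4, and Rps4l, Rpl39l, Rpl10l and Rpl3l stay below 45 RPKM.

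With the batch as a block, which compares libraries of the same batch, the median standard error fell to 0.71, and still 0 of 81 genes were called in each progenitor. Of all genes, the block called 2.09% (BNAP/GRP1), 3.08% (GRP2/MP3), 2.6% (GRP3) and 2.79% (PFMP). At an unadjusted p under 0.05, 3 ribosomal protein genes were found in GRP2/MP3 under the block, where 10.9% of all genes were. They were Rpl10 (log2 difference 1.49, SE 0.62), Rpsa (1.49, SE 0.64) and Rpl39 (1.23, SE 0.55), with limma adjusted p between 0.319 and 0.391. In the other 3 progenitors the count was 0, against 14.4%, 10.9% and 11.3% of all genes for BNAP/GRP1, GRP3 and PFMP.

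NSCs against the mean of the 4 progenitors gave the same picture. None of the 81 genes was called by limma, where 1.98% of all genes tested were, 540 of them higher in NSCs. At an unadjusted p under 0.05 the count was 0 of 81 (all genes 1898 of 27614), and 2, Rpl10 and Rpl39, under the replicate block, where 12.4% of all genes were. The median log2 difference was -0.50, and 5 of 81 genes were higher in NSCs. The F test between the 5 populations called 0 of 81 (0.786% of all genes), and 0 of 81 at an unadjusted p under 0.05 (all genes 1229). In the 6 direct comparisons between progenitors 0 of 81 genes were called by limma, and 0 of all genes (0%), with 0 of 81 at an unadjusted p under 0.05.

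Genes that work with the ribosome were read beside these values. Translation factors and other TOP messages, among them Eef1a1 and Eef2, gave 0 of 17 called in each progenitor. Of 48 ribosome biogenesis factors tested, 0 were called, of 14 genes of mTORC1 and TOP control 0, and of 77 genes for the mitochondrial ribosome, a separate set of proteins, 0. The median log2 difference of the 17 translation genes was -0.24, 0.47, 0.33 and 0.50 from BNAP/GRP1 to PFMP, and that of the mitochondrial ribosome was -0.51, -0.18, -0.18 and -0.03. Markers of other cell types also differed between the populations. The 10 ependymal markers summed to between 1458 and 15954 RPKM in NSCs and to at most 557 in any progenitor library, and 10, 9, 10 and 10 of them were called lower. Microglia markers had medians of 2742 RPKM in BNAP/GRP1 and 3667 in GRP2/MP3, against 62.4 in NSCs, 35.8 in GRP3 and 98.0 in PFMP, with 0 of 10 called. The ranges overlapped, with BNAP/GRP1 down to 152 and NSCs up to 2538. All 5 libraries of batch 3 lay between 2538 and 2847. The part of these cells in the ribosomal protein values was not tested.

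Between batches the ribosomal protein genes differed far more than between populations. With batch and population in one model, 65 of 81 genes were called between batches by the F test, where 59.8% of all genes tested were called. The F test between populations given above had no batch term, and with the replicate block its count was also 0. Batch took a median of 70.4% of the sum of squares of a ribosomal protein gene and population 4.64%, against 43.9% and 14.3% over all genes tested. The lowest p fell to Rpl39, a short X-linked large subunit protein (limma adjusted p = 2.28e-08), Rpl30 (1.24e-07) and Rps23 (4.81e-07), a protein of the decoding centre. The highest p fell to Rpl26 (limma adjusted p = 0.809), Rps14 (0.469) and Rpl38 (0.428).

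**Figure D4:**
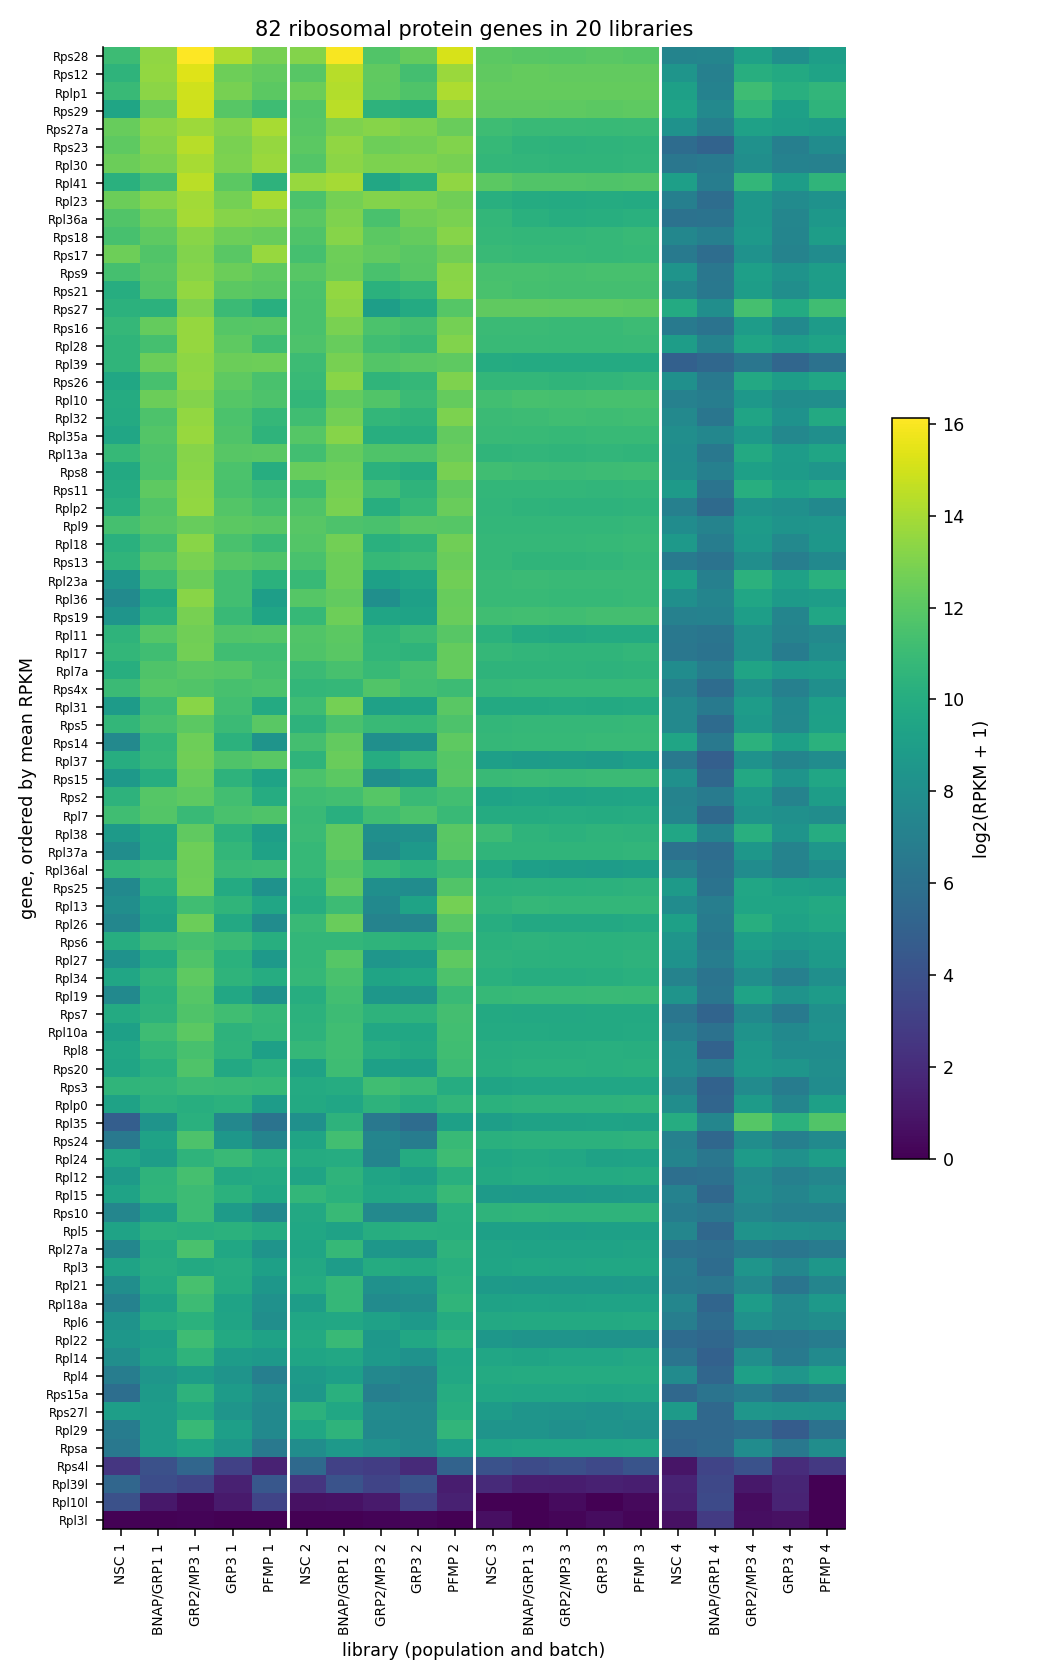
Log2(RPKM + 1) (colour) of the 82 ribosomal protein genes (y axis, ordered by mean RPKM) in the 20 libraries (x axis, by batch and population, with white lines between batches). The 5 columns of batch 3 look alike, the 5 of batch 4 are darker for most genes, with Rpl35 among the exceptions, and the columns of batches 1 and 2 differ among themselves.

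Batch 4 was low. Against the mean of the other 3 batches, 69 of 81 genes were called lower in batch 4, where 8.11% of all genes tested were called lower, and 1 was called higher, where 43.3% of all were. The median log2 difference was -2.85 over the ribosomal protein genes and 0.82 over all genes. In 48 of the 81 genes all 5 batch 4 libraries lay below all 15 others, which held for 1.02% of all genes. Rpl39 gave 30.1, 41.5, 79.6, 38.8 and 66.2 RPKM in batch 4 (the NSC library first, then the progenitors as named above) and at least 916 in every other library. Its log2 difference was -5.76 (SE 0.40, limma adjusted p = 2.34e-08). Rps23 fell by 5.41 (SE 0.49) and Rpl30 by 5.15 (SE 0.42) on the log2 scale.

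The 3 acidic stalk proteins and all 8 of the ubiquitin fusion, regulatory and disease genes (Rps27a, Rpsa, Rps6, Rpl5, Rpl11, Rps19, Rps4x and Rpl41) were among those called lower. Rps6 is the substrate of S6 kinase, and Rpl5 and Rpl11 bind Mdm2. Of the 17 translation factors and TOP genes 14 were called lower in batch 4, with a median of -1.75. Biogenesis factors went both ways, with 7 of 48 higher and 9 lower, and so did the mitochondrial ribosome, with 12 of 77 higher and 13 lower. NSC and astroglial markers were called higher in 8 of 12, and erythrocyte markers lower in 5 of 6. Of all genes tested, 43.3% were called higher and 8.11% lower. Batch 3 is part of the mean that batch 4 was set against. The NSC and astroglial markers summed to a median of 6319 RPKM in batch 4, against 4151, 5248 and 282 in batches 1 to 3. The erythrocyte markers had medians of 106 in batch 4 and 694, 755 and 246191 in batches 1 to 3. Libraries of batch 4 had about 122000 to 3050000 reads, PFMP 4 having more than any library of batch 2. Their composition differed as well. The most abundant gene held 10.3% (NSC 4) to 32.3% (PFMP 4) of all RPKM in batch 4, against at most 8.55% in any other library. Genes above 0 numbered 37856 to 39689 in batch 4 except in PFMP 4 (24102), against at most 31999 in the other batches. The part of this in the low values was not tested. Whether batch stands for a litter, a sort or a sequencing run is not given in the sources used here, and what differs between batches cannot be told apart.

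Rpl35 alone was called higher in batch 4. It gave 1008, 170, 3734, 1321 and 3395 RPKM there, and was the highest core gene in 4 of the 5 libraries. In batch 1 it gave 27.3, 325, 1218, 185 and 68.1 RPKM, and in batch 2 267, 1389, 87.7, 50.4 and 572. In batch 3 it lay between 527 and 643. Batch 4 and the other batches overlapped, and the log2 difference was 2.06 (SE 0.80, limma adjusted p = 0.0393). The call was lost under median-of-ratios scaling (adjusted p = 0.11), with a mean of at least 5 RPKM required (adjusted p = 0.0536), and when any single one of 11 libraries was left out (NSC 1, NSC 4, BNAP/GRP1 3, GRP2/MP3 2, 3 and 4, GRP3 2 and 4, and PFMP 1, 3 and 4; adjusted p up to 0.119).

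**Figure D5:**
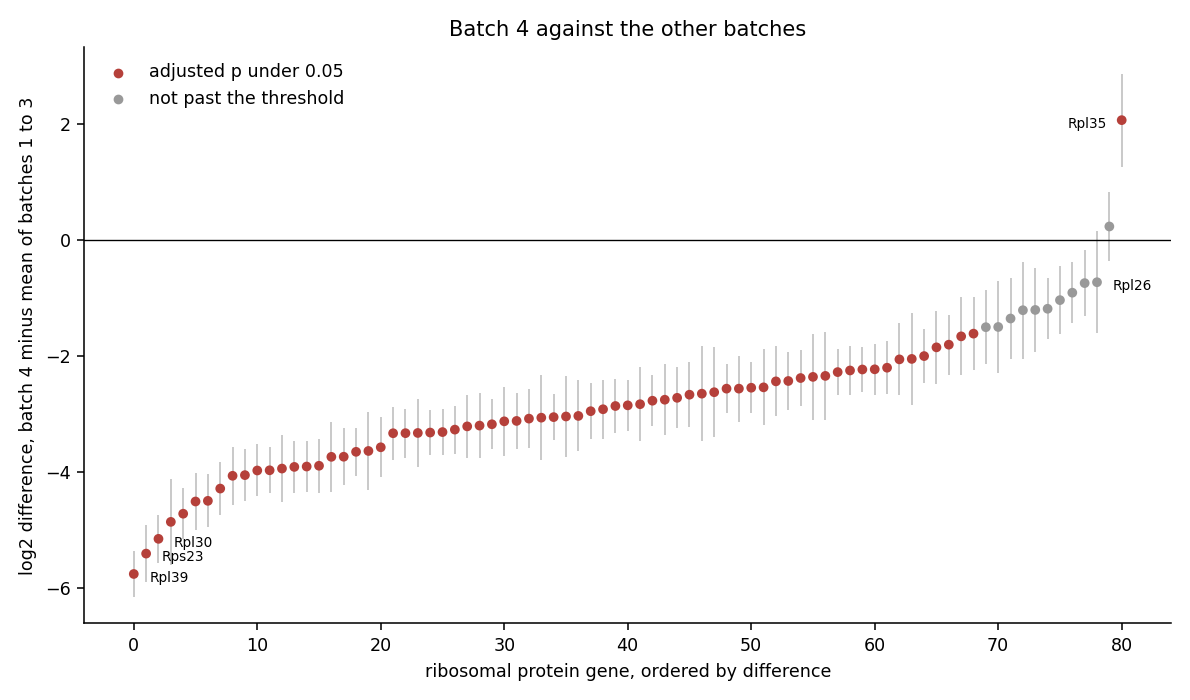
Log2 difference between batch 4 and the mean of batches 1 to 3 (y axis) for the 81 ribosomal protein genes tested, in order (x axis), with the standard error as a line and colour for an adjusted p under 0.05. The points run from -5.76 for Rpl39 to 2.06 for Rpl35, and 79 of them lie below 0.

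In the other batches the calls were upwards. Batch 1 had 23 of 81 genes called higher than the mean of the other 3 batches (2.13% of all genes), led by Rpl23 at a log2 difference of 3.27 (SE 0.46), and 0 lower. Batch 2 had 19 (1.61% of all genes), led by Rpl39 at 2.70 (SE 0.40). Batch 3 had 8 of 81, a smaller share than the 12.5% of all genes called higher there. They were Rps10, Rps24, Rps15a, Rpsa, Rpl4, Rpl19, Rpl14 and Rpl6. These counts moved with single libraries. For batch 1 the count was 14 to 32 with 1 library left out, the lowest without GRP3 1. For batch 2 it was 5 to 27, at 5 without BNAP/GRP1 2, 7 without GRP3 2, 8 without NSC 2 or PFMP 2 and 12 without PFMP 3. For batch 3 it was 2 to 15, at 2 without GRP3 3, 3 without NSC 3 or BNAP/GRP1 3, 4 without PFMP 3 or PFMP 1, 5 without GRP2/MP3 3, GRP3 2 or NSC 1, 13 without BNAP/GRP1 4 and 15 without PFMP 4, 3 of those lower. Since each batch is set against a mean that includes batch 4, their values include its low levels. Without batch 4 16 of the 81 genes (19.8%) were called between batches, against 27.3% of all genes. Without batch 3 54 (66.7%) were called, against 20.6% of all genes, and between batches 1 and 2 alone 0 of 81 (0 of all 27614 genes).

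The balance among the messages of ribosomal protein genes also differed between libraries. Protein was not measured. In batch 3 the core genes ran from about 329 to 5144 RPKM in NSC 3, a 15.6-fold range, and the other libraries of that batch gave between 16.1-fold and 18.2-fold. In batches 1 and 2 the range was between 35.2-fold in BNAP/GRP1 1 and 247-fold in PFMP 1. In batch 4 it was 8.93-fold in BNAP/GRP1 4, the narrowest of all, and between 33.5-fold and 68.6-fold in the other 4. The coefficient of variation over the 5 populations had a median of 3.67% over the 76 core genes in batch 3, against 75.8%, 64.5% and 58.6% in batches 1, 2 and 4. Over all genes tested it was 34.0% in batch 3 and 82.1%, 99.0% and 102% in the others, above the core genes in every batch. Pearson's r between 2 libraries of batch 3 across the 76 core genes lay between 0.98 and 1.00, as a description over genes.

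Rpl26 and Rpl23, whose proteins both sit in the large subunit in equal number, were taken as an example of message levels. The pair was chosen after the values were seen. Rpl26 gave 176 RPKM and Rpl23 5777 in NSC 1, a ratio of 0.0305. In PFMP 1 the ratio was 0.0138, in GRP2/MP3 2 0.0166 and in GRP3 2 0.0196. The other batch 1 libraries gave 0.0684 in BNAP/GRP1, 0.121 in GRP3 and 0.373 in GRP2/MP3. The ratio was between 0.614 and 0.823 in NSC 2, BNAP/GRP1 2 and PFMP 2, between 0.896 and 0.970 in batch 3, and between 1.96 and 4.60 in batch 4. Rps14 and Rps27a, of the small subunit, were also chosen as a pair after the values were seen, so they are no independent check. Their lowest ratios were in the same 4 libraries, at 0.0355 in NSC 1, 0.0191 in PFMP 1, 0.0278 in GRP2/MP3 2 and 0.0406 in GRP3 2. These libraries come from batches 1 and 2 and from 4 populations.

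Reads of ribosomal proteins can also fall on their pseudogenes, of which the table had 257 rows for 57 parents. Summed, these rows stood at a median of 3.58% of the parent's mean RPKM. For Rpl38 they stood at 553%, owing to Rpl38-ps2 with a mean of 8363 RPKM, and for Rpl31 at 94.4%, so the levels of both are uncertain. Rpl38-ps2 lay at or below 115 RPKM in batch 4 and at or above 1398 in every other library. The high p of Rpl38 between batches was obtained without this row and is uncertain too. In BNAP/GRP1 4 the pseudogene rows reached 51.4 RPKM per 100 RPKM of ribosomal protein genes, against at most 17.4 in the other libraries. Adding the rows to their parent genes left 0 of 81 called against NSC in each progenitor.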

How the data were processed

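The measurements are RNA-seq of 20 sorted-cell libraries, 4 for each of 5 populations, grouped by the labels. The authors deposited RPKM values per gene (reads divided by gene length and by library size); their processing notes name STAR 2.6.1, Salmon 1.9.0, cutadapt 3.4, FastQC 0.11.9 and nf-core/rnaseq 3.10, and the paper aligns to GRCm38. The lengths and read totals behind the RPKM are not given in the sources used here. Another 26 columns name no sample, are empty and were not used.

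Values were taken as log2(RPKM + 1) and tested with limma 3.58.1 in R 4.3.3 (lmFit, eBayes with a trended prior), with a mean for each population over all 20 libraries, genes reaching 1 RPKM in 4 or more libraries, and Benjamini-Hochberg adjustment over 27614 genes (threshold 0.05). Comparisons between batches added the batch to the model. The steps were tested on simulated data for GRP3 against NSC with 27614 genes: 71 of 100 genes shifted by a log2 of 4 and 88 of 100 shifted by 6 were called, with 12 unchanged ones.

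Depth was estimated from short genes, whose RPKM times the GENCODE vM21 length piles up at the value of 1 read; no counting interval was computed. Positions and transcripts came from GENCODE vM21 and promoters from RefSeq (GRCm38.p6). Strand use in counting is not given, and nearly identical copies may share reads. The study describes 4 independent experiments per population, with the pups of a litter pooled; p-values measure the spread between these libraries.

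The labels give the shared batch, and the libraries of a batch deviated together: after the population means were removed, the median correlation was 0.337, 0.262, 0.769 and 0.581 within batches 1 to 4 (lowest 0.0341) and -0.254 between batches. The study's methods name DESeq2 1.26.0 for its comparisons and mention no batch term, without giving the model, so the block was kept as an alternative. The others were a pseudocount of 0.1, no filter, a mean of at least 5 RPKM, 3 other scalings, a prior without trend, library weights (statmod 1.5.0), only the compared libraries, each library left out and each batch left out. Batch 3 left out with the block, batches 1 and 2 alone, pseudogenes added to their parents, and counts over batches 1, 2 and 4 were chosen after seeing the data.

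Genes were named by rule: the paralogue, stalk and regulatory lists, the 5 highest and 5 lowest means, the 3 largest rises and falls in each progenitor, and the 3 lowest and 3 highest p between batches. Rpl12, Rps2, Rps3, Rpl3 and others listed by a count, and Rpl23, were chosen after their values were seen. The genes and lists were chosen with earlier results of these data known. Figures used matplotlib 3.10.9 in Python 3.11.15.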

Additional observations from a re-analysis of the deposited data

Results flagged for a closer look

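In each population the 4 values of the 32 named genes and of the summed share were checked for a library whose gap to the nearest other exceeded Dixon's critical share of the range; 9 of 165 groups did, where chance gives about 1 in 20. Of these, 4 were low values in batch 4: Rps4x at 125 RPKM in NSC 4 (other NSC libraries 1648 to 2019) and at 127 in GRP3 4 (others 1813 to 2724), Rplp0, the stalk base protein, at 164 in GRP3 4 (others 1031 to 1375), and Rps6 at 87.4 in BNAP/GRP1 4 (others 1360 to 2058). Rps27l was high in NSC 2, at 1314 RPKM against 441 to 516 in the other NSC libraries. Rpl39l was high in GRP3 2, at 15.4 RPKM against 1.82 to 2.12. Rpl3l stood apart at 6.08 RPKM in BNAP/GRP1 4 (others at most 0.0847), at 0.537 in GRP2/MP3 4 (others 0.121 to 0.155) and at 0.189 in PFMP 3 (others listed at 0).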

How the results depend on the processing

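The count of 0 genes called against NSC in BNAP/GRP1, GRP2/MP3 and PFMP, in NSCs against all progenitors, in the direct comparisons and between populations stayed at 0 under every alternative run, the replicate block (0) and each library left out (0 to 0) included. In GRP3 library weights gave 1 (Rps27l, -1.45). Between batches the 65 calls ranged from 60 to 70 with 1 library left out, and fell to 16 without batch 4 and to 0 in batches 1 and 2 alone with the replicate block, both fits having fewer samples. With 1 library left out the median log2 difference ranged from -0.43 to 1.41 in BNAP/GRP1, 0.018 to 1.28 in GRP2/MP3, -0.46 to 0.93 in GRP3 and -0.0078 to 1.19 in PFMP. Single genes that turned direction had not been called before. In BNAP/GRP1 these were Rpl7 (main -0.47, library weights 0.66, 1 library left out -1.31 to 0.81) and Rplp0 (main -0.43, library weights 0.68, without batch 4 0.30, batches 1 and 2 alone 0.38, 1 library left out -0.95 to 0.77). Without batch 1, Rpl10l turned to 0.0298 in GRP2/MP3 and Rpl39l to 0.37 in GRP3. Rpl10l in PFMP (main -0.21) turned to 0.21 under quantile normalization, 0.18 without batch 4, 0.0621 in batches 1 and 2 alone, and -0.88 to 0.62 with 1 library left out. With 1 library left out Rpl39l ranged from -1.02 to 0.22 in GRP2/MP3 and -1.31 to 0.14 in GRP3, and Rpl39 in GRP3 from -0.58 to 2.34. In batch 4 Rpl26 (main -0.73) turned to 0.27 under quantile normalization, 0.43 with library weights and up to 0.034 with 1 library left out (lowest -1.08). The causes were not tested. Rescaling moved the median of all genes in BNAP/GRP1 from 0.38 to 0.19 (equal totals), 0.27 (median-of-ratios) and 0.09 (quantile). Depth limits most the values of BNAP/GRP1 4.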
